A study of Mus musculus with 8 samples.

Results

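Corticosterone acts on cells through the glucocorticoid receptor, a nuclear receptor that needs partner proteins to switch genes on or off. The mRNAs of 9 of these partners were followed here in the bEnd3 line, which was derived from the endothelium of mouse brain. They are the coactivators Ncoa1, Ncoa2 and Ncoa3, the acetyltransferases Crebbp and Ep300, the corepressors Ncor1 and Nrip1, the Mediator subunit Med1 and the chromatin remodelling ATPase Smarca4. The genes were taken by name from the deposited table of estimated counts, where all 9 of them were found among 35852 genes. A receptor with bound hormone binds the 3 Ncoa proteins through short leucine-rich motifs, and these bring in Crebbp and Ep300, which acetylate histones. Med1 links the receptor to Mediator and so to RNA polymerase II, and Smarca4 is one of the motors of the SWI/SNF complex that moves nucleosomes. Ncor1 and Nrip1 work in the other direction, by bringing histone deacetylases to the gene.

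One group of cells was given 5 µM corticosterone, the main glucocorticoid of mice, for 24 h (4 libraries), and the other was kept in medium (4 libraries). All cells were of 1 line, grown with fetal calf serum, and corticosterone is named in the labels' protocol field for the medium samples too, with no vehicle given. Whether replicates came from separate cultures is not in the labels, and a p-value then reflects only how far these libraries spread, which may be technical. Poly(A) RNA was sequenced in directional libraries, and in bulk RNA a lower number of cells of a kind and less RNA per cell cannot be told apart.

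Library totals were 27.7 to 33.2 M estimated counts with corticosterone and 19.7 to 46.2 M in medium, with M for 1000000. The glucocorticoid-induced genes Fkbp5, Per1 and Tsc22d3, used as a check of the labels, were 6.83-fold, 4.42-fold and 3.87-fold higher with corticosterone, with no overlap between groups. All 8 endothelial markers examined were present, at a summed 8140 to 8275 counts per M counts (CPM) with corticosterone and 7441 to 7915 CPM in medium. Mural cell markers summed to 1.15 to 1.53 CPM with corticosterone and 1.41 to 2.84 CPM in medium. Neural, glial and immune markers summed to 0.830 to 1.26 CPM with corticosterone and 0.526 to 0.874 CPM in medium, with Aqp4 at 0 counts. Fibroblast markers summed to 5.72 to 6.54 CPM with corticosterone and 19.998 to 22.0 CPM in medium, and most of this was Pdgfra, with 4.87 ± 0.120 and 18.4 ± 1.00 CPM (SD, n = 4 each). The part of this difference in the results below was not tested. Corticosterone replicates 1 and 2 stood apart by an effective transcript length set equal to the transcript length plus 1 nt. In the other 6 libraries it was a median of 340.4 to 360.3 nt shorter than the transcript. Values per transcript length (TPM) are thus on another scale in those 2 libraries, and gene-level comparisons were made on counts.

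Of the 9 coregulators, 1 rose with corticosterone (Ncoa3), 2 fell (Ncoa1 and Ep300), and 6 did not pass the threshold of an adjusted p under 0.05 in edgeR's quasi-likelihood test. Over the whole table, 5327 of 13272 genes tested passed it (40.1%), with 2590 higher (19.5%) and 2737 lower (20.6%), so 3 of 9 is close to the share among all genes. In the 6 libraries of like effective length 4 of 9 passed, with Smarca4 lower as well, against 36.4% of all genes. The 2 groups did not overlap in CPM for the same 3 coregulators, against 39.9% of all genes. Changes were small, between -0.17 and 0.24 on the log2 scale, with a median size of 0.08 among the 9 genes, compared with 0.14 among all genes tested. All genes tested were not matched to the 9 by count level. A larger change than that of Ncoa3 was found in 4282 genes (32.3%). All 9 genes passed the filter on low counts, and each had at least 532 estimated counts in every library.

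**Figure D1:**
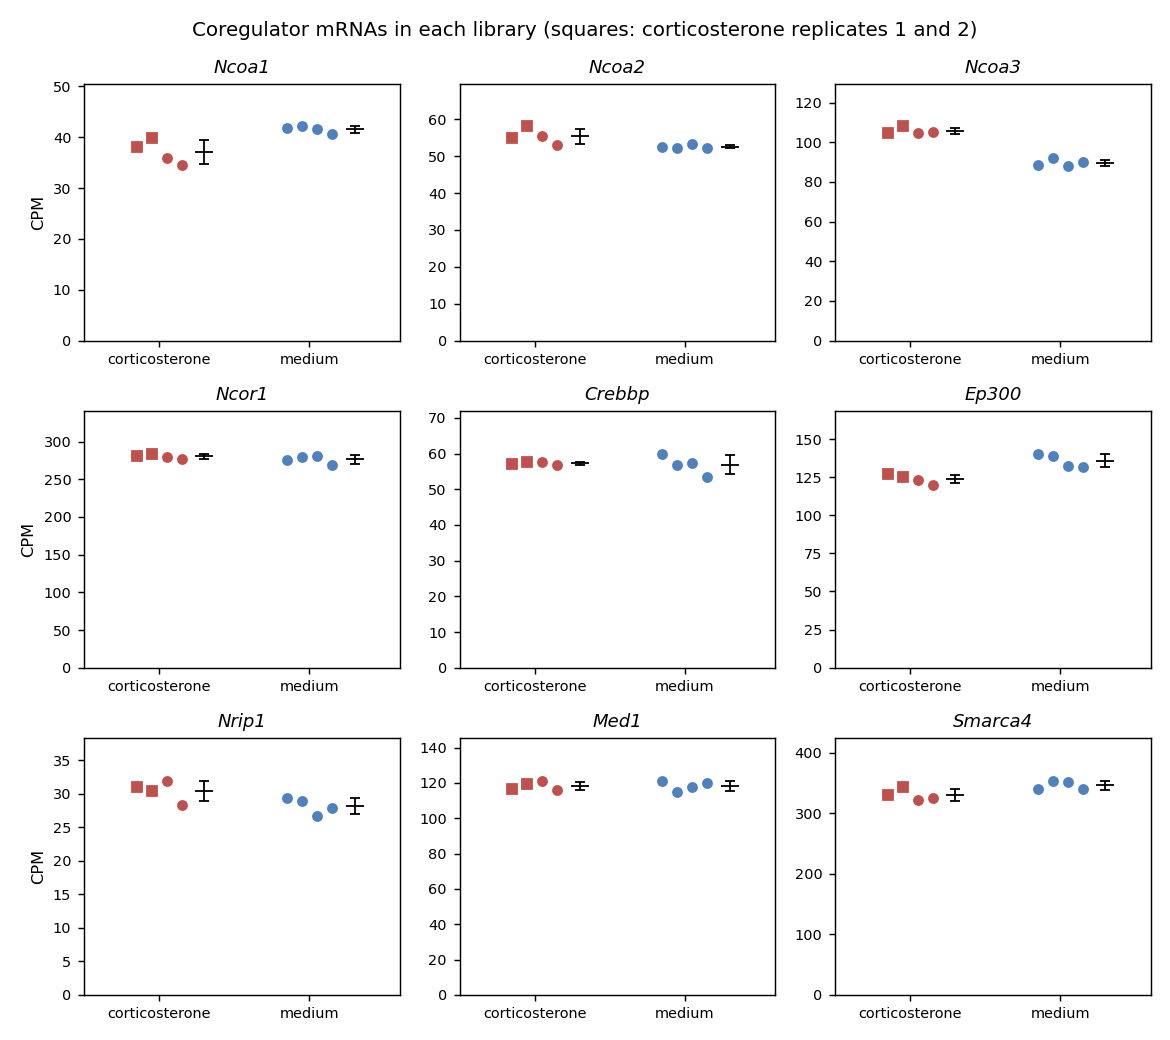
TMM-scaled CPM (y axis from 0) of each coregulator in the 4 corticosterone libraries (red; squares are replicates 1 and 2) and the 4 medium libraries (blue). Black marks give the mean and SD; the groups are apart for Ncoa3, Ncoa1 and Ep300 and overlap for the other 6 genes.

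**Figure D2:**
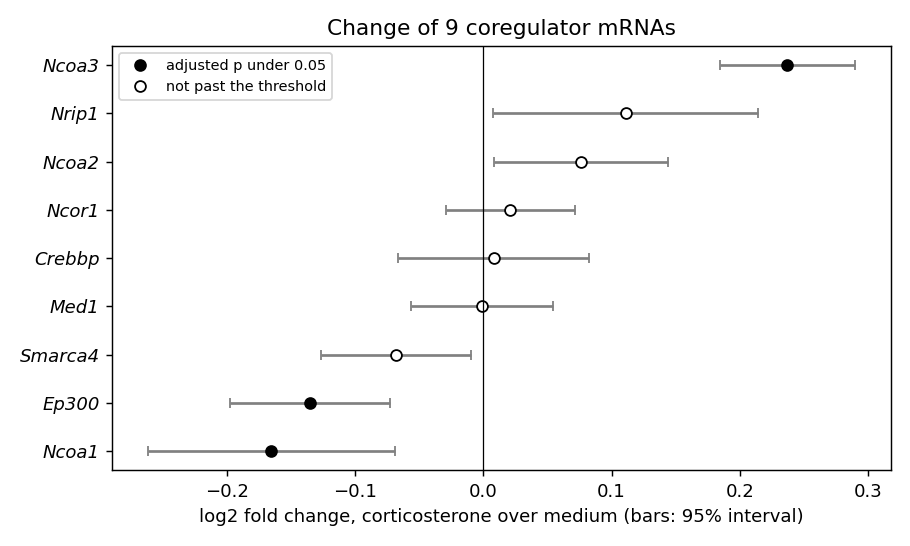
Log2 fold change of each coregulator mRNA, corticosterone over medium, with its 95% interval from edgeR (n = 4 libraries per group). Filled points passed an adjusted p under 0.05; Ncoa3 lies at 0.24, Ep300 at -0.14 and Ncoa1 at -0.17.

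The 3 members of the Ncoa1 to Ncoa3 family, also called the p160 or steroid receptor coactivators, did not move together: Ncoa3 rose, Ncoa1 fell, and Ncoa2 did not pass the threshold. Ncoa3, known in human for its amplification in breast tumours, lies at chr2:165992636-166073242 on the plus strand (GRCm38; ENSMUSG00000027678.17). Ncoa3 had 104, 108, 104 and 105 CPM with corticosterone, against 88.5, 91.9, 88.0 and 89.8 CPM in medium. Every corticosterone library was above every medium library, with a gap wider than the range within either group. Ncoa3 was 1.18-fold higher (95% interval 1.14 to 1.22; log2 fold change 0.24, SE 0.024; edgeR adjusted p = 6.11e-06). With corticosterone replicates 1 and 2 left out the log2 fold change was 0.23, and on the TPM scale in all 8 libraries it was 0.24 without passing the threshold (limma adjusted p = 0.0641). Ncoa3 shares 154 exon bases, 1.95% of its exons, with Sulf2 on the opposite strand, and the strand setting of the counting is not given in the sources used here.

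Ncoa1, the founding member of the family, lies at chr12:4247362-4477182 on the minus strand (ENSMUSG00000020647.10). Ncoa1 had 38.0, 39.8, 35.9 and 34.5 CPM with corticosterone, against 41.9, 42.1, 41.6 and 40.6 CPM in medium. The medium libraries were tightly grouped and all above the corticosterone libraries, although corticosterone replicate 2 came within 1 CPM of the lowest medium library. The ratio was 0.892 (95% interval 0.834 to 0.953; log2 fold change -0.17, SE 0.044; edgeR adjusted p = 0.00955). Both corticosterone replicates 1 and 2 were higher than replicates 3 and 4, and without them the log2 fold change was -0.24 (edgeR adjusted p = 0.000256). On the TPM scale, where those libraries have another effective length, the change in all 8 libraries was -0.03 (limma adjusted p = 0.889), and in the 6 libraries of like effective length it was -0.22 (adjusted p = 0.0910).

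Most Ncoa1 counts were assigned to the transcript that starts at the upstream end of the gene, and the 250 bases before that start are shown because they are the promoter side of the family member that fell. The sequence is given 5′ to 3′ on the minus strand, in RefSeq's table for GRCm38.p6, and 85.6% of its bases are G or C, against a median of 52.4% over all 32851 windows in that table.
Ncoa1 promoter side, chr12:4477183-4477432: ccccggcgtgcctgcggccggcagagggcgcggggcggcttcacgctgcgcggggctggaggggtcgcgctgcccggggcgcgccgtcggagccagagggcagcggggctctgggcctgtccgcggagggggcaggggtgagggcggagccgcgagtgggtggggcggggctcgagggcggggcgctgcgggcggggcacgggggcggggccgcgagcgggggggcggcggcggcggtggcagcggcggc
The hexamer AGAACA, which is the half-site of the glucocorticoid response element, was searched on both strands (TGTTCT on the other), and neither form is in this window. Only 16.1% of all windows hold it at least once, so its absence is the usual case.

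Ncoa2, which in the mouse serves the glucocorticoid receptor both in activation and in repression, lies at chr1:13139105-13374083 on the minus strand (ENSMUSG00000005886.14). Ncoa2 had 55.1, 58.1, 55.6 and 53.2 CPM with corticosterone, against 52.6, 52.3, 53.3 and 52.4 CPM in medium. In corticosterone replicates 1 to 3 the gene was above all medium libraries, while replicate 4 lay just under the highest medium library. The fold change was 1.05 (95% interval 1.01 to 1.105, edgeR adjusted p = 0.0717). Of 17 alternatives to this fit, the gene passed the threshold in only 1, with corticosterone replicate 4 left out (edgeR adjusted p = 0.0274).

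Of the 2 related acetyltransferases, Ep300 fell and Crebbp did not pass the threshold. Ep300, or p300, which acetylates histone H3 at active enhancers, lies at chr15:81585351-81652077 on the plus strand (ENSMUSG00000055024.12). Ep300 had 127, 125, 123 and 120.0 CPM with corticosterone, against 140, 139, 132 and 132 CPM in medium. The groups were apart, and the medium libraries fell into a higher pair (replicates 1 and 2) and a lower pair (replicates 3 and 4). Ep300 was at 0.910 of its medium level (95% interval 0.872 to 0.951; log2 fold change -0.14, SE 0.029; edgeR adjusted p = 0.00221), and at a log2 fold change of -0.16 without corticosterone replicates 1 and 2. On the TPM scale the call was lost, at a log2 change of -0.13 in all 8 libraries (limma adjusted p = 0.468) and -0.22 in the 6 libraries of like effective length (adjusted p = 0.162).

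Crebbp, the CREB-binding protein, lies at chr16:4081328-4213997 on the minus strand (ENSMUSG00000022521.10). Crebbp had 57.0, 57.5, 57.6 and 56.7 CPM with corticosterone, against 59.98, 56.9, 57.2 and 53.5 CPM in medium. The corticosterone libraries lay within 1 CPM of each other and inside the wider range of the medium libraries. The fold change was 1.01, with a 95% interval of 0.955 to 1.06 (edgeR adjusted p = 0.879), so a change of the size fitted for Ep300 lies outside the interval for Crebbp.

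Neither corepressor passed the threshold. Ncor1, the scaffold that holds the deacetylase Hdac3, lies at chr11:62316426-62458541 on the minus strand (ENSMUSG00000018501.17). Ncor1 had 281, 284, 279 and 277 CPM with corticosterone, against 276, 280.0, 281 and 268 CPM in medium. The ranges overlapped, and the fold change was 1.01 (95% interval 0.980 to 1.05; edgeR adjusted p = 0.514).

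Nrip1, known as RIP140, represses metabolic genes in fat and muscle and lies at chr16:76287400-76373827 on the minus strand (ENSMUSG00000048490.14). Nrip1 had 31.05, 30.5, 31.9 and 28.4 CPM with corticosterone, against 29.3, 28.9, 26.7 and 27.9 CPM in medium. Corticosterone replicates 1 to 3 were above all medium libraries, and replicate 4 lay among them. The fold change was 1.08 (95% interval 1.01 to 1.16, edgeR adjusted p = 0.0828). The gene passed the threshold in only 1 of 17 alternatives to this fit, without corticosterone replicate 4 (edgeR adjusted p = 0.0230).

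Nrip1 has 2 annotated transcripts above 10% of its counts, with different first exons and the same coding length of 3483 nt, and both promoter sides are shown because each belongs to a transcript with its own share of counts below. The Ncor1 sequence is the only window among the 9 available for these genes that holds the hexamer, marked in capitals. It lies inside Ncor1 at a start that RefSeq lists downstream of the first exon. Whether mRNA starts there in these cells, or the receptor binds there, was not tested. All 3 are read 5′ to 3′ on the minus strand, from RefSeq on GRCm38.p6.
Nrip1, start of Nrip1-202, chr16:76373828-76374077: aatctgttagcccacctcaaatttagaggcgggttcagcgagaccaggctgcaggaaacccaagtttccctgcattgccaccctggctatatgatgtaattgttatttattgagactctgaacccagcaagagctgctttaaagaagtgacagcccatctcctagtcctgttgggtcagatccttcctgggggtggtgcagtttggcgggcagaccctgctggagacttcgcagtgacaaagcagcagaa
Nrip1, start of Nrip1-201, chr16:76373050-76373299: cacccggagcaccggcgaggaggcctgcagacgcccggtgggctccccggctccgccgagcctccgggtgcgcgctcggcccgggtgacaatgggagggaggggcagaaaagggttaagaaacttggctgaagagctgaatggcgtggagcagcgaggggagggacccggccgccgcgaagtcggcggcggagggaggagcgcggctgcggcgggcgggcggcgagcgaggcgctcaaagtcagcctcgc
Ncor1, inner start, chr11:62438516-62438765: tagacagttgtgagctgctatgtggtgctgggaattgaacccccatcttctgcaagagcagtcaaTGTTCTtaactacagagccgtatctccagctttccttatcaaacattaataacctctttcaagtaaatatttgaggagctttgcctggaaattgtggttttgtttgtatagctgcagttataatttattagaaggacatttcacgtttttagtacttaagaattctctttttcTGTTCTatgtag
The window before Nrip1-202 has 51.2% G and C and that before Nrip1-201 has 73.6%. The Ncor1 window has 36.8% and holds the hexamer 2 times, where 16.1% of all windows hold it at least once. The palindrome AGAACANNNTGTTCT was in none of the 9 windows, and in 0.0091% of all. The windows covered 7 of the 9 genes.

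Med1 and Smarca4, the links to Mediator and to SWI/SNF, did not pass the threshold in the fit of all 8 libraries. Med1, at chr11:98152154-98193293 on the minus strand (ENSMUSG00000018160.15), had 117, 119, 121 and 116 CPM with corticosterone, against 121, 115, 117 and 120 CPM in medium. The ranges were nearly the same, and the fold change was 0.999 (95% interval 0.962 to 1.04; edgeR adjusted p = 0.984). Smarca4, also called Brg1, at chr9:21616169-21704230 on the plus strand (ENSMUSG00000032187.16), had 330, 343, 322 and 325 CPM with corticosterone, against 340, 354, 351 and 340 CPM in medium. Corticosterone replicates 1, 3 and 4 were below all medium libraries, and replicate 2 lay among them. The ratio was 0.954 (95% interval 0.916 to 0.993; edgeR adjusted p = 0.0602). Smarca4 passed the threshold in only 5 of 17 alternatives to this fit. It passed without corticosterone replicate 2 (edgeR adjusted p = 0.0170) and in the 6 libraries of like effective length (0.0199). It also passed with a term for the other 2 libraries (0.0218) and with library size as the only scaling (0.00505). The last was the TPM scale in the 6 libraries of like effective length (limma adjusted p = 0.0305).

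The balance within a family can be read from the ratio of 2 genes' counts in the same library, which needs no scaling between libraries. In all, 6 such ratios were computed and 5 are given, with pairs taken after the values above were seen, and the 3 ratios of the Ncoa family share members. A ratio of counts is not a ratio of levels, since the genes differ in length, so only its change between groups is read. The Ncoa3 to Ncoa1 ratio was 2.75, 2.71, 2.91 and 3.06 with corticosterone, against 2.11, 2.18, 2.11 and 2.21 in medium. The Ncoa2 to Ncoa1 ratio was 1.45, 1.46, 1.55 and 1.54 with corticosterone, against 1.26, 1.24, 1.28 and 1.29 in medium. The Ncoa3 to Ncoa2 ratio was 1.90, 1.86, 1.88 and 1.98 with corticosterone, against 1.68, 1.76, 1.65 and 1.72 in medium.

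None of these 3 ratios overlapped between groups, so Ncoa1 made up a smaller part of the family's reads with corticosterone in every library. The Ncoa3 to Ncoa1 ratio was 1.32 times its medium value, the Ncoa2 to Ncoa1 ratio 1.18 times and the Ncoa3 to Ncoa2 ratio 1.12 times. The Ep300 to Crebbp ratio was 2.22, 2.17, 2.14 and 2.12 with corticosterone, against 2.34, 2.44, 2.31 and 2.47 in medium, a factor of 0.905 with no overlap. Since the pairs were picked for genes already seen to move apart, these ratios are a description. A permutation test computed on them is not used here, because its outcome follows from that choice. The ratio of Smarca4 to the alternative ATPase Smarca2 was 4.49 ± 0.194 with corticosterone and 4.76 ± 0.455 in medium (SD, n = 4 each), with overlapping ranges.

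**Figure D3:**
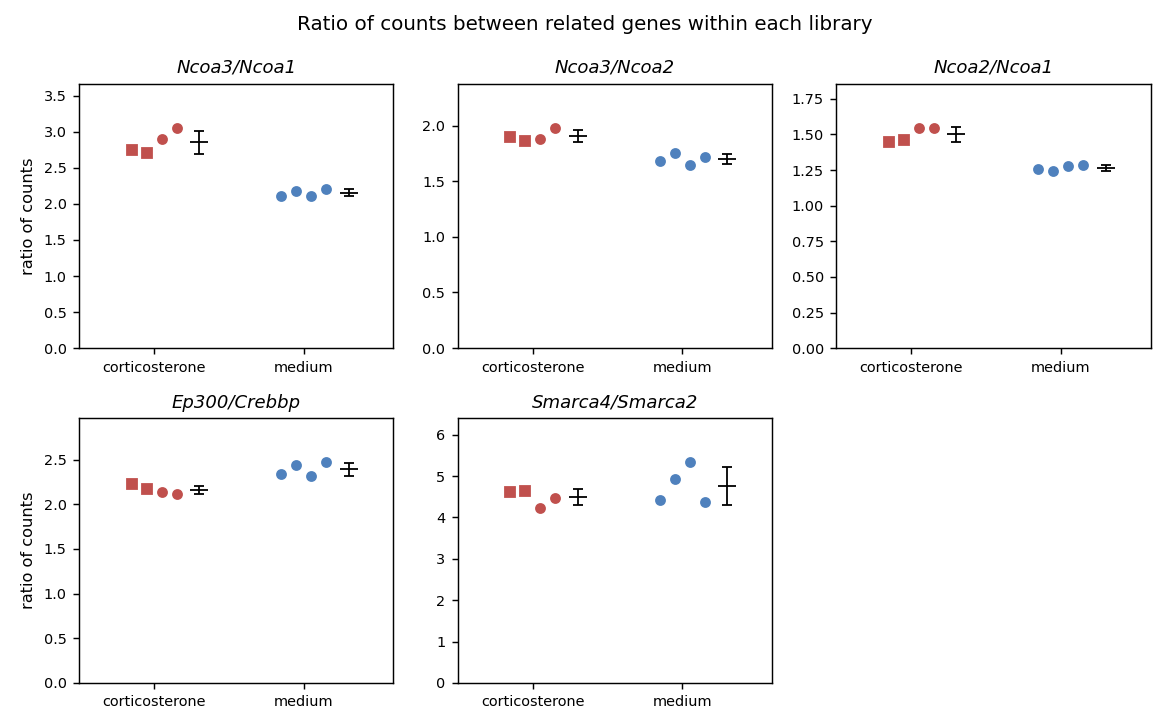
Ratio of estimated counts between 2 related genes in the same library (y axis from 0), in corticosterone libraries (red; squares are replicates 1 and 2) and medium libraries (blue), with mean and SD in black. The groups are apart for the 3 ratios within the Ncoa family and for Ep300 to Crebbp, and overlap for Smarca4 to Smarca2.

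Per transcript length, Ncor1 and Smarca4 were the most abundant of the 9 mRNAs and Nrip1 among the least. In corticosterone replicates 3 and 4, which share the kind of effective length of the medium libraries, Ncor1 had 127 and 124 TPM, against 129, 138, 125 and 115 TPM in medium. Smarca4 had 82.9 and 82.3 TPM in those corticosterone libraries and 89.3 to 92.0 TPM in medium. Next came Ep300 with 28.4 and 32.3 TPM with corticosterone and 31.1 to 38.7 TPM in medium, then Ncoa3 with 30.5 and 31.7 TPM with corticosterone and 25.4 to 28.3 TPM in medium. In medium Ep300 was above Ncoa3 in all 4 libraries, without overlap of their ranges, while in the 2 corticosterone libraries the order differed between libraries. Med1 had 24.4 and 22.4 TPM with corticosterone and 22.4 to 26.1 TPM in medium, a range that overlaps that of Ncoa3.

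Ncoa2 had 11.9 and 12.4 TPM with corticosterone and 11.2 to 14.7 TPM in medium. Below it, Ncoa1 (8.51 and 9.19 TPM with corticosterone, 9.61 to 11.04 TPM in medium) and Crebbp (9.47 and 10.2 TPM with corticosterone, 8.76 to 10.7 TPM in medium) had overlapping ranges. Nrip1 was lowest in medium, with 6.13 to 8.45 TPM, and had 9.93 and 8.25 TPM in the 2 corticosterone libraries. The 9 mRNAs thus lay at percentiles 31.7 to 90.2 of mean TPM among the genes tested. In corticosterone replicates 1 and 2, on their own scale, Ncor1 was also highest at 124 and 123 TPM and Nrip1 lowest at 8.68 and 9.94 TPM.

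At the level of single transcripts, 50 transcripts of the 9 genes were tested and 0 passed the threshold in edgeR's quasi-likelihood test, while 5 had an unadjusted p under 0.05. Among all transcripts, 1260 of 39985 transcripts passed (3.15%), so the test had fewer calls to give than at the gene level. In the 6 libraries of like effective length, 2276 of 43417 passed (5.24%), with 0 of 52 for these genes and 6 at an unadjusted p under 0.05. The share of all transcripts with an unadjusted p under 0.05 was not counted. The 5 and 6 transcripts of these genes thus have no background beside them and are not read as a result. Ep300 and Med1 were carried by 1 transcript each, with 94.2% to 95.7% of counts on Ep300-201 with corticosterone and 94.9% to 96.2% in medium. Med1-203 held 93.4% to 96.6% with corticosterone and 95.3% to 96.7% in medium.

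The gene-level changes of the Ncoa family were spread over the transcripts as follows. Ncoa3-202 and Ncoa3-201, whose coding lengths of 4206 and 4209 nt differ by a single codon, had log2 fold changes of 0.24 (SE 0.086) and 0.27 (SE 0.10), with edgeR adjusted p of 0.304 and 0.355. Ncoa1-201, with a mean 78.2% of the gene's counts, had a log2 fold change of -0.26 (SE 0.073; edgeR adjusted p = 0.160), and Ncoa1-209, with 17.4%, one of 0.05 (SE 0.33). In the 6 libraries of like effective length these were -0.25 (SE 0.069) for Ncoa1-201 and -0.26 (SE 0.35) for Ncoa1-209, so the sign of the second rests on the other 2 libraries. Of the Ncoa2 transcripts, Ncoa2-202 and Ncoa2-203 have the same coding length of 4179 nt and Ncoa2-201 a longer one of 4386 nt. Ncoa2-201 held 23.6%, 25.4%, 28.7% and 29.1% of counts with corticosterone, against 28.6%, 31.8%, 32.2% and 29.1% in medium.

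The share of the leading transcript differed between groups by -14.0 points (Ncor1) to 5.83 points (Ncoa2), and no gene passed (two-sided exact permutation tests, unadjusted p of 0.143 or more). The smallest p of this design is 0.02857, which a single gene could not carry through an adjustment over 9 genes, so these tests do not show that shares stayed the same. For Nrip1, the transcript from the outer start, Nrip1-202, held 79.3%, 64.2%, 71.1% and 69.2% with corticosterone, against 73.8%, 73.5%, 69.1% and 74.5% in medium. The corticosterone libraries were on both sides of the medium range. The 2 Nrip1 transcripts also end at different positions, so these shares are not a measure of the starts alone. Smarca4-204 held 77.2% to 84.7% with corticosterone and 78.2% to 79.5% in medium.

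Isoform shares varied most in the 2 corticosterone libraries with another effective length. Ncor1-201 held 0% of Ncor1 counts in corticosterone replicate 1, against 48.0%, 52.8% and 55.3% in the other corticosterone libraries and 53.7%, 52.6%, 52.5% and 53.3% in medium. In that library 27.3% were on Ncor1-204, which had 0% in the other 7, and 26.4% on Ncor1-205, which had 4.93% to 10.1% elsewhere, while the gene's CPM was within the range of the other corticosterone libraries. Crebbp-201 held 41.9% and 40.0% in corticosterone replicates 1 and 2, against 52.3% and 48.7% in replicates 3 and 4 and 48.5% to 56.9% in medium. Taken over the 9 genes, the median distance of a library's isoform makeup from the mean of the other 7 (the sum of absolute differences in share, divided by 2) was 8.49, 8.79, 2.22 and 3.12 points with corticosterone, against 3.15, 1.87, 6.01 and 2.001 points in medium. The part of the effective length in these shares was not tested.

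**Figure D4:**
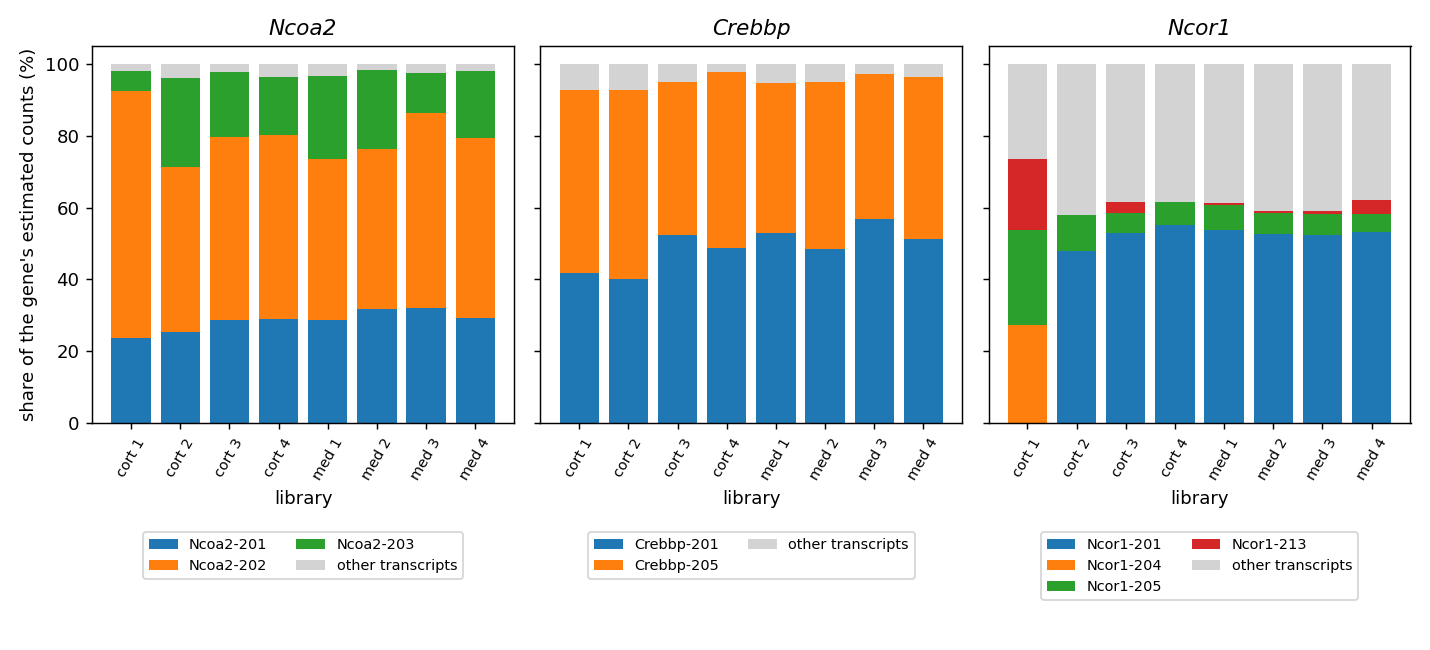
Share of the gene's estimated counts (%) on each named transcript in the 4 corticosterone (cort) and 4 medium (med) libraries, for Ncoa2, Crebbp and Ncor1; gray is the sum of all other transcripts. Ncor1-201 is at 0% in corticosterone replicate 1 and at 48.0% to 55.3% in the other 7 libraries.

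The 9 coregulators work in larger assemblies, and 117 other genes of 7 lists were examined beside them. Of these, 111 were tested, 9 rose and 39 fell (43.2%, against 40.1% of all genes), and their median log2 fold change was -0.06, compared with -0.0046 for all genes. With library size as the only scaling, 4 rose and 49 fell, where all genes also leaned lower (2191 higher and 3365 lower). With RLE, another scaling between libraries, 10 rose and 37 fell, beside 2679 higher and 2634 lower among all genes. Of the partners of Ncor1 in its complex, 4 are described here, and no count is given over the complex. Tbl1xr1, which helps exchange corepressors for coactivators, fell to 27.5, 28.3, 29.5 and 27.1 CPM with corticosterone, against 34.8, 34.8, 35.5 and 34.7 CPM in medium (log2 fold change -0.32, SE 0.038; edgeR adjusted p = 2.85e-05). Gps2 fell by 0.26 on the log2 scale and Tbl1x by 0.07, and the deacetylase Hdac3 was at -0.08 (edgeR adjusted p = 0.187).

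In the Sin3 and NuRD deacetylase complexes, 1 of 12 genes rose and 4 fell (41.7% called, against 40.1% of all genes). The riser was the Sin3 subunit Sap30 (0.38), and Rbbp4, a histone chaperone (-0.21), Mta2 (-0.15), Sin3a (-0.14) and the deacetylase Hdac2 (-0.10) fell. Sap18 had the highest fitted value of the list, 0.94, but did not pass the threshold (edgeR adjusted p = 0.214). Among 11 other histone-modifying enzymes 3 rose and 2 fell (45.5% called, against 40.1% of all genes). Kdm6a, the demethylase of histone H3 lysine 27, had 74.6, 74.7, 75.9 and 68.5 CPM with corticosterone, against 52.9, 54.4, 46.8 and 50.8 CPM in medium (log2 fold change 0.52, SE 0.048; edgeR adjusted p = 3.89e-06). The acetyltransferase Kat2a (0.08) and the methyltransferase Kmt2c (0.11) rose by less, and the acetyltransferase Kat5 (-0.24) and the arginine methyltransferase Prmt1 (-0.13) fell.

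Among 17 other coactivators tested, 2 rose and 7 fell (52.9% called, against 40.1% of all genes). Ncoa7, which despite its name is unrelated to the Ncoa1 to Ncoa3 family, had 51.0, 52.0, 52.7 and 49.3 CPM with corticosterone, against 36.5, 34.7, 34.7 and 33.0 CPM in medium (log2 fold change 0.56, SE 0.038; edgeR adjusted p = 1.36e-07). The other riser was Trip4 (0.13), and the falls included Trim24 (-0.20) and Rbm14 (-0.18). Of 11 other corepressors tested, Hr rose (0.63) and 5 fell: Lcorl (-0.42), Trim28 (-0.19), Safb (-0.15), Rcor1 (-0.14) and Trim33 (-0.14). That is 54.5% of the corepressors called, against 40.1% of all genes.

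Of 31 Mediator subunits tested besides Med1, 0 rose and 9 fell by edgeR's adjusted p, which is 29.0%, where 20.6% of all genes were lower and 40.1% were called in either direction. In the 6 libraries of like effective length, 2 rose and 7 fell. Leaving out 1 replicate at a time, 0 to 1 rose and 6 to 10 fell. Med14, the backbone subunit that joins the parts of Mediator, had 65.7, 66.9, 66.3 and 63.4 CPM with corticosterone, against 86.3, 83.2, 83.9 and 83.1 CPM in medium (log2 fold change -0.36, SE 0.026; edgeR adjusted p = 3.14e-07). Med13 and Med17 both stood at -0.17. Of 24 SWI/SNF subunits tested besides Smarca4, Brd9 rose (0.12) and 9 fell, which is 41.7% called, against 40.1% of all genes. In the 6 libraries of like effective length, 0 rose and 9 fell. Bcl7a fell most, to 10.1, 11.04, 11.1 and 11.1 CPM with corticosterone, against 16.2, 15.5, 15.8 and 14.5 CPM in medium (log2 fold change -0.51, SE 0.056; edgeR adjusted p = 1.19e-05). The core subunit Smarcc1 stood at -0.19 and the bromodomain subunit Pbrm1 at -0.15.

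**Figure D5:**
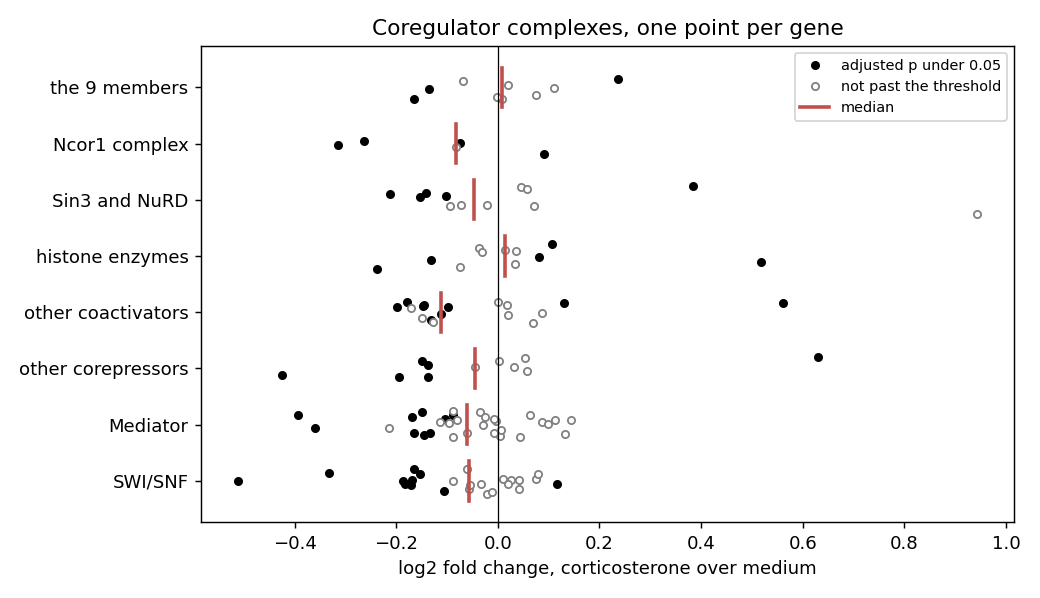
Log2 fold change, corticosterone over medium, of the 9 coregulators and of the genes tested in the 7 related lists, 1 point per gene; filled points passed an adjusted p under 0.05 in edgeR, and red lines are medians. The list medians lie between -0.11 (other coactivators) and 0.01 (histone enzymes), and the 9 coregulators span -0.17 to 0.24.

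Genes with a profile most like those of the 2 Ncoa genes were sought over the 8 libraries, by the root mean square difference of log2 CPM after centring on the medium mean. Among 9226 genes with a mean of 10 CPM or more, the nearest to Ncoa3 were Fli1, an endothelial transcription factor (difference 0.013; log2 fold change 0.23), Aarsd1 (0.018; 0.23) and Mgat1 (0.018; 0.22), where the median difference of all genes was 0.20. The nearest to Ncoa1 were the RNA helicase Ddx52 (0.025; -0.19), the orphan nuclear receptor Nr2c2 (0.028; -0.18) and Nsmaf (0.029; -0.19), beside a median of 0.15.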

How the data were processed

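The authors deposited 1 table of estimated counts per gene, not normalized, and a kallisto output for each library. It lists 119414 transcripts. Per the file headers, the authors deposited for each transcript an estimated count, an effective length and a TPM, the abundance per 1000000 transcripts that kallisto scales by effective length. Per the submitters' processing notes, bcl2fastq and kallisto 0.46.1 were used with mm10 and GRCm38. Not given in the sources used here are the index, the setting for strand and how transcripts were summed to genes. Gene names and positions come from GENCODE M21, and the gene table equalled the transcript sums within 0.5 counts for nearly all genes. Promoter windows come from RefSeq on GRCm38.p6, without the bases after the start.

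Estimated counts were rounded to whole numbers, filtered with filterByExpr, and scaled by TMM. The fit was made in edgeR 4.0.16 under R 4.3.3 (robust quasi-likelihood F test, group as the only term). A gene or transcript was called at a Benjamini-Hochberg adjusted p under 0.05 over all features tested. CPM of single genes are TMM-scaled, while the summed CPM of cell type markers use library totals without TMM. The SE is the size of the log2 fold change divided by the root of F. Alternatives were RLE or library-size scaling, no filter, a replicate block, each replicate left out, the 2 corticosterone libraries of another effective length left out or given a term, DESeq2 1.42.0, and limma 3.58.1 on log2(TPM + 0.5). The script was tested on simulated data. Totals of 19.7 to 46.2 M counts (M for 1000000) set the precision.

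The coregulators, the lists and the tests were chosen with earlier results of these data known. Text names each coregulator, the 3 genes of smallest p per list, the 3 nearest profiles of the largest riser and faller, and transcripts with at least 10% of counts; other list genes, and the gene ratios, were chosen after their values were seen. One gene that the rule takes is not reported here, although counts of genes include it.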

Additional observations from a re-analysis of the deposited data

Results flagged for a closer look

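In 118 groups of 4 libraries examined, 5 had 1 library far from the other 3 by Dixon's test, and chance flags about 1 group in 20. Ncor1-201 held 0% of the gene's counts in corticosterone replicate 1, against 48.0% to 55.3% in the other 3 corticosterone libraries. Bcl7a had 10.1 CPM in corticosterone replicate 1, against 11.04 to 11.1 CPM in the other 3. In medium, Crebbp had 8.76 TPM in replicate 4, against 10.5 to 10.7 TPM in the other 3, and Nrip1-201 held 29.9% of the gene's counts in replicate 3, against 25.002% to 25.8%. Tbl1xr1 had 35.5 CPM in medium replicate 3, against 34.7 to 34.8 CPM in the other 3.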

How the results depend on the processing

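Leaving out 1 replicate at a time gave 3 to 5 called coregulators and 4753 to 5089 called genes; 5 came without corticosterone replicate 4, which added Ncoa2 and Nrip1. Ncoa3, Ncoa1 and Ep300 kept their direction under all alternatives and lost the call only on TPM. With limma on TPM in all 8 libraries, 1710 genes, 0 of the 9 coregulators and 5 related genes passed. Of these related genes, 4 were higher and 1 was lower, against 9 and 39 in edgeR. Among all called genes, 61.6% were higher, against 48.6% in edgeR. On TPM without the 2 libraries of another effective length, 2854 genes, 2 coregulators (Ncoa3 and Smarca4) and 21 related genes passed. Those related genes were 3 higher and 18 lower. The scale of TPM in those 2 libraries differs by construction. Transcript calls ranged from 674 to 1672 with 1 replicate left out, and were 2276 in the 6 libraries, 822 with a term for the other 2, and 179 with a replicate block. The replicate block left 4913 genes, 3 coregulators and 46 related genes called. Libraries with the same number did not deviate together (correlations of -0.051, 0.059, -0.12 and -0.076) or correlate best with their own number in every case. These values are centred within groups of 4 libraries and cannot show whether the libraries were paired, which the labels do not say.

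Signs of several fold changes turned. Med1 was at 0.0045 with RLE scaling, 0.0059 without a filter and in the 6 libraries, 0.0031 with a term, 0.0032 in DESeq2, 0.16 on TPM, and between -0.015 and 0.014 with 1 replicate left out. Ncor1 was at -0.0096 with library size alone, -0.024 on TPM and -0.012 on TPM in the 6 libraries. Crebbp was at -0.023 with library size alone, -0.039 on TPM in the 6 libraries, and between -0.021 and 0.038 with 1 replicate left out. On TPM, Smarca4 was at 0.084, Trim28 at 0.051, Med17 at 0.21, Rcor1 at 0.0013 and Rbbp4 at 0.20; Ncoa2 was at -0.0062 on TPM in the 6 libraries. On counts, the difference in the share of Ncor1-201 was -14.0 points in all libraries and 1.03 points in the 6 libraries. Those 6 leave out corticosterone replicates 1 (share 0%) and 2 (48.0%). With 1 replicate left out at a time, this difference stayed negative, from -19.4 to -0.999 points. The share difference of Smarca4-204 was 1.29 points in all libraries and -0.66 points in the 6 libraries. Without 1 replicate, the share difference of Nrip1-202 ranged from -4.55 to 0.50 points. The cause of these turns was not tested. For the named related genes, 318 alternative values kept direction and call, 18 lost the call and 4 reversed.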
